A study of Mus musculus with 2 samples.

Results

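The expression of 8 genes known for their part in the myelin sheath of Schwann cells (Mbp, Pmp22, Mag, Prx, Egr2, Sox10, Cnp and Mal) was examined in dorsal root ganglion (DRG) neuron preparations. The 8 were taken by gene symbol from the 24411 genes in the data, and they hold 24 of the 35034 RefSeq transcript rows. Schwann cells wrap the axons of peripheral nerves. Sox10 is present throughout the lineage, and those that myelinate an axon also switch on Egr2. Together these transcription factors drive the genes for the compact sheath, such as Mbp and Pmp22, and for the membrane facing the axon or the basal lamina, such as Mag and Prx. Several of these genes are also transcribed elsewhere: Pmp22 in satellite glia and fibroblasts, Mal in epithelia and T lymphocytes, and Mbp, from a second upstream start, in neurons and lymphoid cells.

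Both libraries came from C57BL/6 mice (C57BL/6J in the study's methods), stated to be males of 6 to 8 weeks, which received 50% alum, an aluminium salt adjuvant, by the intraperitoneal route on days 0 and 14. One group received alum alone (alum-injected), and the other also received 100 µg of keyhole limpet hemocyanin (KLH), a mollusc protein, with each dose (alum + KLH-immunized). The label of the control library calls it naïve as well as alum alone, and it was treated here as alum-injected. Thoracic and lumbar DRGs were taken on day 28, digested with collagenase/dispase, spun over a layer of albumin and depleted of B lymphocytes, which gave a neuron-enriched suspension. DRG neurons of 10 mice were pooled into 1 library per group, called the alum pool and the KLH pool here. The spread among mice is therefore unknown, the groups could not be tested against each other, and no p-value is given. Where a pair of values follows a gene or list, the first is from the alum pool and the second from the KLH pool.

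Levels are in TPM, a unit that corrects read numbers for transcript length and scales every library to a total of 1000000, so that genes can be compared per length. The rows of a gene were summed. A lower bound on sequencing depth is given in the methods, but TPM does not hold the reads behind a value, so no counting interval was computed. Genes above 3 TPM, a cutoff taken from the study's methods, are called detected. In bulk RNA, fewer cells of a type and less RNA per cell cannot be told apart.

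The myelin genes differed in level by a wide margin in both preparations. Of the 8 genes, 5 were above 3 TPM in both pools and 3 were below it in both. Among all genes in the files 45.5% were above 3 TPM in both pools, and among genes with a coding row 50.8%. The highest and the lowest of the 8 were 4466-fold and 4500-fold apart. In sum the 8 genes reached 1236 TPM and 1189 TPM, and Pmp22 alone made up 86.0% and 85.8% of this.

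**Figure D1:**
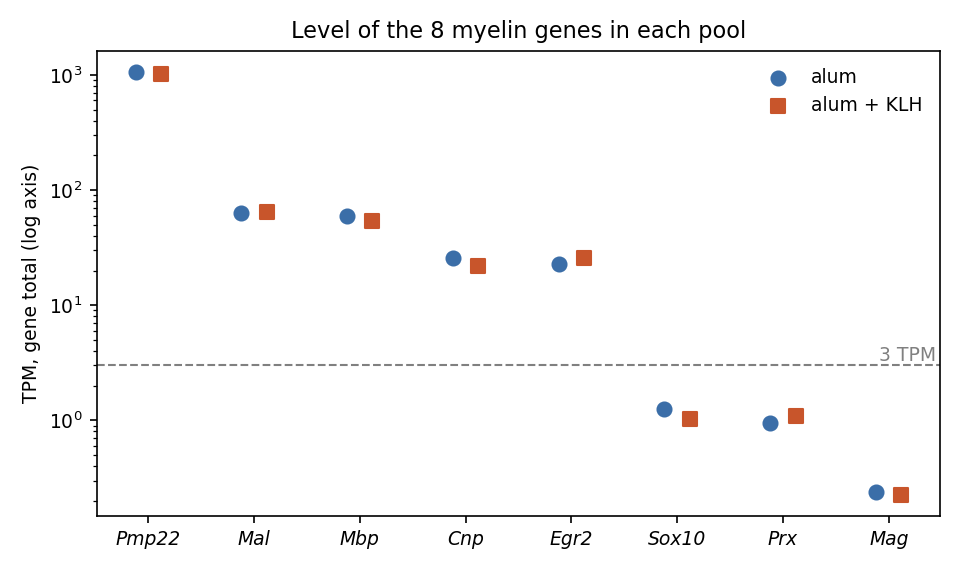
Level of the 8 myelin genes as TPM summed per gene (log axis) in the alum pool (circles) and the KLH pool (squares), 1 library of 10 mice each, with the detection threshold of 3 TPM as a dashed line. Pmp22 stands near 1062 and 1021 TPM, 4 genes lie between 21.99 and 65.0 TPM, and Sox10, Prx and Mag lie below the threshold.

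Among the genes of compact myelin, Pmp22 was by far the most abundant. Pmp22, which encodes a small membrane protein of the sheath whose extra copy causes the neuropathy Charcot-Marie-Tooth type 1A in humans, lies on chromosome 11 (63128982 to 63159547, plus strand, GRCm38, the assembly of mm10). Its level was 1062 TPM with alum and 1021 TPM with KLH. Only 0.377% and 0.414% of all genes were higher. Mbp, which encodes myelin basic protein, the protein that holds the cytoplasmic faces of the sheath together, lies on chromosome 18 and was at 59.4 and 53.9 TPM. Mal, a lipid raft proteolipid of the sheath encoded on chromosome 2 (127633226 to 127656695, minus strand), was at 63.4 and 65.0 TPM. Mbp and Mal were 17.9-fold and 16.8-fold below Pmp22 with alum and 18.9-fold and 15.7-fold below it with KLH.

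Among the 8, the genes of non-compact myelin and of the membranes that face the axon or the basal lamina were lower, and some were near 0. This order was not tested for sheath genes outside the 8. Cnp, which encodes a phosphodiesterase of the cytoplasmic channels of the sheath, lies on chromosome 11 (100574909 to 100591875, plus strand) and was at 25.6 and 21.99 TPM. Mag, on chromosome 7 (30899175 to 30914922, minus strand), encodes the adhesion molecule of the inner membrane that faces the axon. It was the lowest of the 8, at 0.238 and 0.227 TPM, and 66.4% of all genes were higher in each pool. Prx encodes periaxin, a scaffold that links the outer sheath to the basal lamina, and also lies on chromosome 7 (27499305 to 27520041, plus strand). It was at 0.945 and 1.10 TPM.

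The transcription factors of the program also stood far apart from each other. Egr2 (Krox20; chromosome 10, 67534469 to 67542188, plus strand) was detected at 22.8 and 25.5 TPM. Sox10, the factor that marks neural crest glia as a whole (chromosome 15, 79154913 to 79164490, minus strand), was below the threshold at 1.25 and 1.03 TPM. The order of the 8 genes was the same in both pools except at 2 places. Cnp was above Egr2 in the alum pool and below it in the KLH pool, and Sox10 and Prx exchanged places in the same way. With 1 library per group, these exchanges have no spread to be set against.

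The label of these genes as a Schwann cell set was checked against other glial genes. S100b and Scn7a, the highest of 11 general Schwann and neural crest glia markers, were at 683 and 711 TPM and at 694 and 694 TPM. The study itself lists Scn7a among nociceptor-related genes, so its level here cannot be read as glial alone. Both pools had 9 of these 11 above 3 TPM, and 7 of the 9 were lower in the KLH pool. Of all genes above 3 TPM in at least 1 pool, 56.4% were lower. The sum over the 11, Scn7a included, was 1988 and 1967 TPM. The receptor gene Erbb3, which Schwann cells need to respond to axonal neuregulin, was not above the threshold, at 1.496 and 1.16 TPM, and neither was Foxd3, at 1.38 and 1.28 TPM. All 8 satellite glia markers were above 3 TPM in both pools, with sums of 1639 and 1521 TPM, led by Fabp7 at 953 and 888 TPM and Glul at 302 and 293 TPM. High levels of several listed markers, not all of them particular to glia, thus stood beside low levels of Sox10, Erbb3, Mag and Prx. The 8 genes are therefore described by name and not as the output of one cell type. Their cell of origin was not tested.

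Genes of oligodendrocytes, which make the myelin of the spinal cord and share Mbp, Mag, Cnp and Mal with Schwann cells, were low. Of 11 oligodendrocyte markers in the files 0 were above 3 TPM in either pool, and the sum over the list was 4.97 and 4.003 TPM. The highest was Ermn at 2.42 and 2.41 TPM, and Myrf ranked second by mean at 0.709 and 0.532 TPM. Mobp and Opalin were listed at 0 in both pools.

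Because several of the 8 genes have alternative starts or exons, the division of their TPM among RefSeq rows was examined next. kallisto divides reads among rows that share exons, so a row value is an estimate and the gene total is the firmer quantity. Of the 24 rows, 11 were above 3 TPM in both pools and 3 were listed at 0 in both. No row above 3 TPM was at least 2-fold apart between the pools, against 4.65% of all 14215 rows above that level in at least 1 pool.

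Nearly all Pmp22 signal was given to a single row. NM_001302261 was at 1041 and 1000.4 TPM, or 98.1% and 98.0% of the gene. The other 6 rows together were at 20.7 and 20.3 TPM. GENCODE's RefSeq table matches NM_001302261 and 2 further rows to a single transcript with 5 exons that starts at position 63128982, so the match does not tell which start each row uses.

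The gene has 4 starts in the RefSeq promoter table, and the 250 bases before the first and the second are shown in GRCm38 because they differ in composition, with 48.8% GC at the first (chr11:63128732-63128981, plus strand) and 61.2% at the second (chr11:63131207-63131456, plus strand). Mag and Cnp are shown (chr7:30914923-30915172, minus strand, and chr11:100574689-100574903, plus strand, which stops before an annotated exon) because among the genes with an entry they hold a SOX core motif. Sequences run 5′ to 3′ in the direction of the gene, and capitals mark this motif.
Pmp22, first start: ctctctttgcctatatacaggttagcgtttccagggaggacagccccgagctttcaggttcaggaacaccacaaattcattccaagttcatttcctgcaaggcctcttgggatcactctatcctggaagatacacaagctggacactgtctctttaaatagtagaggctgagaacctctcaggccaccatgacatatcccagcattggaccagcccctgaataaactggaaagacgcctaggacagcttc
Pmp22, second start: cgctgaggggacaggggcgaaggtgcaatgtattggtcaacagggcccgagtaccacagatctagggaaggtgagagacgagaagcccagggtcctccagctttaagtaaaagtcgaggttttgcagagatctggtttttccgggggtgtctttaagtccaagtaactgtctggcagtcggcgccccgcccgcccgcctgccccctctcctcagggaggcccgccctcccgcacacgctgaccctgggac
Mag, most upstream start: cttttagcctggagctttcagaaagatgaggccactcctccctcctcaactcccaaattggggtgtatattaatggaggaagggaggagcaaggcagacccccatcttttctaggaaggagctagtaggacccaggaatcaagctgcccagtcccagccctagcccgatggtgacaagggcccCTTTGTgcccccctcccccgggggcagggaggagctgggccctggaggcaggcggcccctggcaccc
Cnp: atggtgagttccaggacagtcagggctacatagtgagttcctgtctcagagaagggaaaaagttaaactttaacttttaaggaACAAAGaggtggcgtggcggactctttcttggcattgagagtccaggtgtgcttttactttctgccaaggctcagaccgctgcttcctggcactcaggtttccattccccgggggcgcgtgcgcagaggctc

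In windows of 300 bases, 250 before and 50 after each start, 6 of the 8 genes had 15 RefSeq entries. The core motif of SOX factors, searched as ACAAAG or ACAATG on both strands, was found in 2 of these 6 genes. It lay at position -67 from the most upstream Mag start, and the same site also falls in the window of a neighbouring Mag start. In Cnp it lay at position -167. The motif occurs in 31.7% of all genes with a promoter entry. The EGR motif GCGNGGGCG was found in 0 of the 6 genes and in 6.27% of all genes. These matches are descriptions of letters and not of binding.

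Mbp signal was divided between its distant starts in nearly the same proportion in both pools. The rows matched to the upstream start, from which the golli transcripts of the locus are made, were NM_001025245 at 17.0 and 15.3 TPM and NM_010777 at 0.123 and 0.103 TPM. Together they held 28.9% and 28.6% of Mbp. Another 6 rows were matched to starts 79.3 to 79.4 kb further downstream, where the classic myelin basic protein transcripts begin. They held 42.2 and 38.5 TPM, or 71.1% and 71.4%. Of these NM_001025259, matched to a transcript of 5 exons, was at 41.2 and 35.5 TPM. NM_001025256 was listed at 0 in the alum pool and was at 1.26 TPM in the KLH pool, and NM_001025255 was at 0.984 and 1.61 TPM. Between the pools (log2 of TPM + 1, KLH minus alum) the upstream rows differed by -0.15 and the downstream rows by -0.13.

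Mal, Cnp and Prx each have 2 rows. In Mal the row NM_001171187, matched to a transcript of 3 exons, was at 55.8 and 55.4 TPM, or 88.1% and 85.3% of the gene. The 4-exon row NM_010762 was at 7.57 and 9.55 TPM. In Cnp, NM_009923 was at 17.2 and 15.7 TPM and NM_001146318 at 8.46 and 6.31 TPM, so that the share of the first was 67.0% and 71.3%. In Prx, NM_019412 held all of the signal in the alum pool and 96.0% in the KLH pool, at levels where the gene itself was below the threshold. Mag, Egr2 and Sox10 each have 1 row in the files.

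**Figure D2:**
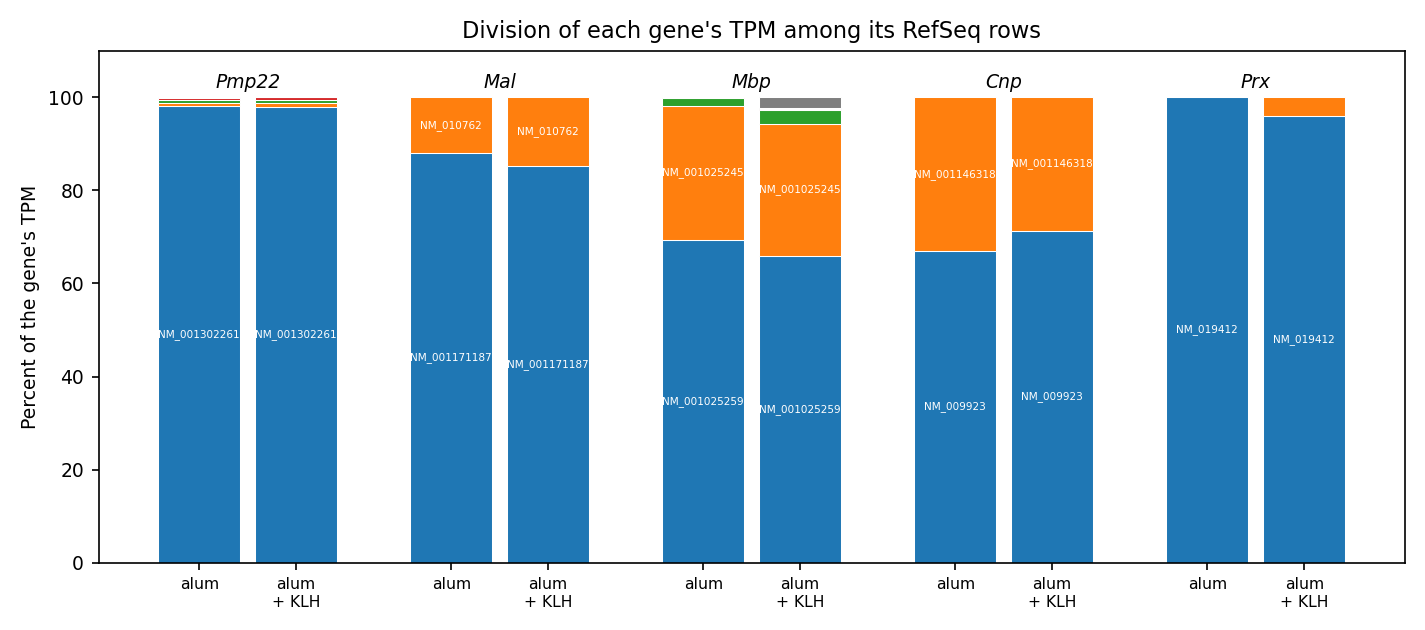
Percent of each gene's TPM given to each of its RefSeq rows in the alum and the KLH pool, for the 5 genes with more than 1 row. Colours follow the order of the rows within a gene in the alum pool and do not link rows of different genes. The leading row is the same in both pools for each gene, with 98.1% and 98.0% in Pmp22 and 69.4% and 66.0% in Mbp.

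The 3 genes below the threshold shared a feature that was not used to choose them, a high GC content. The transcript matched to Sox10 had 61.7% GC, Prx 57.7% and Mag 57.6%, each in the top bin (55.6% and above) when coding genes are divided into 5 equal bins by GC content. Cnp, at 55.8%, was the only other of the 8 in this bin. Mal and Mbp had 54.9% and 54.8%, Egr2 51.4%, and Pmp22, the most abundant, had the lowest value at 48.6%. The Spearman correlation of GC content and TPM over the 8 genes (n = 8) was -0.74 and -0.83, a description of points that share a library. The feature was examined after the levels had been seen.

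Over all coding genes the same direction was weak, with a Spearman correlation of -0.10 and -0.12 across 20370 genes, which are not independent replicates. In the bin of highest GC content 37.1% of the genes were above 3 TPM with alum and 34.4% with KLH. In the bin from 43.4% to 47.6% GC, 62.2% were above it in each. Of the 101 genes formed by the 8 and the 93 genes of 5 lists of myelination genes described next, 7 of 21 in the highest GC bin (33.3%) were above 3 TPM in both pools, against 33.9% of all coding genes there. In the lowest bin 9 of 10 were above it, against 47.9%. Whether GC content contributed to the levels of Sox10, Prx and Mag was not tested.

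**Figure D3:**
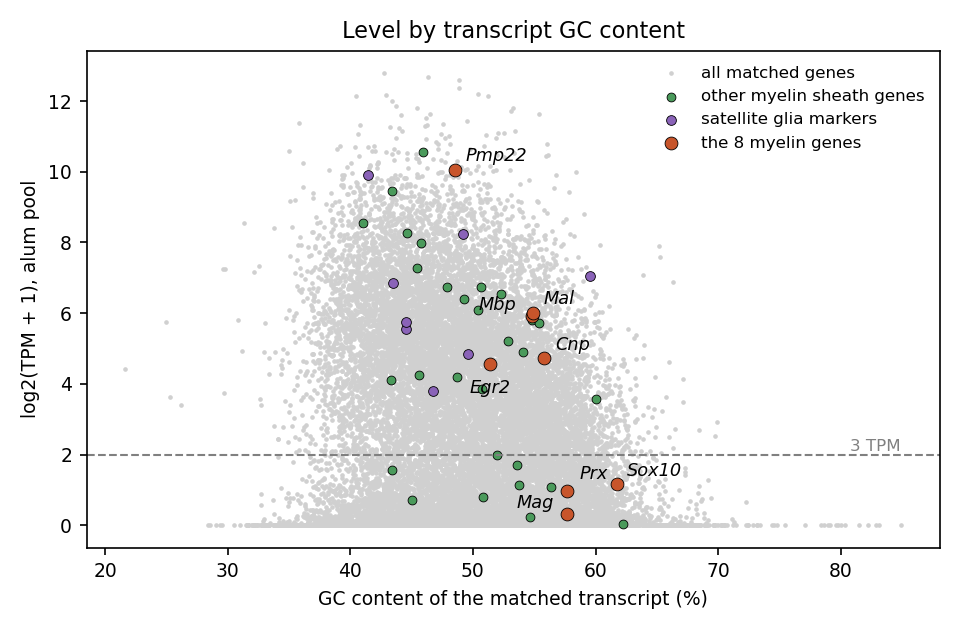
Level in the alum pool as log2(TPM + 1) against the GC content of the matched transcript in percent, for all matched genes (grey), other myelin sheath genes (green), satellite glia markers (purple) and the 8 myelin genes (orange). Pmp22 lies at 48.6% GC and 1062 TPM, whereas Mag, Prx and Sox10 lie above 57% GC and below the dashed line at 3 TPM.

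The groups were compared by a log2 ratio, the log2 of TPM + 1 with KLH minus that with alum, which understates differences of low genes. None of the 5 detected genes was at least 2-fold apart. Among the 11648 genes above 3 TPM in at least 1 pool, 0.695% were at least 2-fold higher in the KLH pool, 0.944% at least 2-fold lower, and 1.64% apart either way. Over the 5 detected genes the median log2 ratio was -0.06, with 3 lower and 2 higher, and over the 11648 genes it was -0.02, with 56.4% lower. Over all 8 genes the ratios ran from -0.21 to 0.16.

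**Figure D4:**
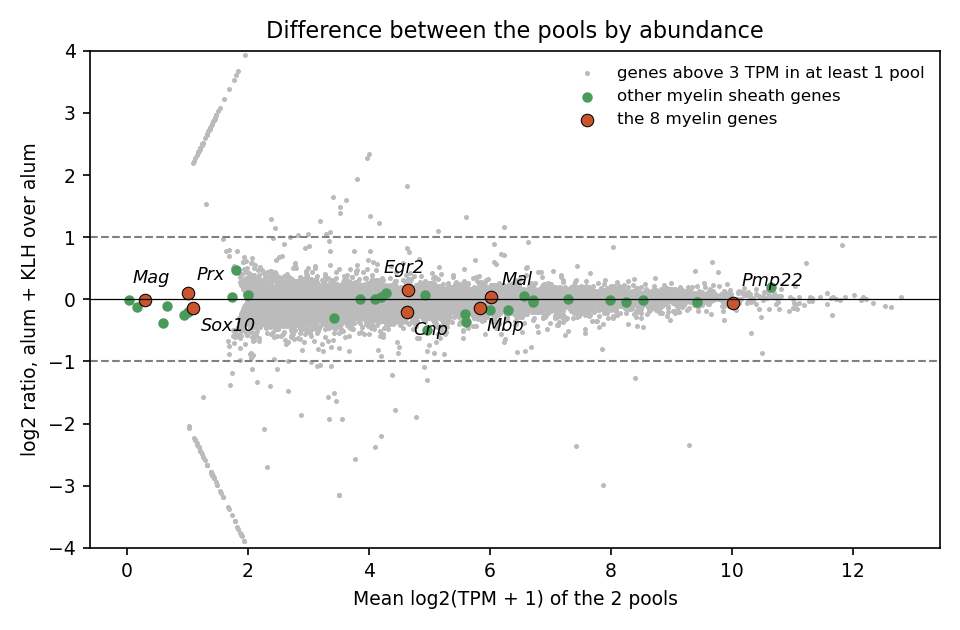
log2 ratio of the KLH over the alum pool against mean log2(TPM + 1), for genes above 3 TPM in at least 1 pool (grey), other myelin sheath genes (green) and the 8 myelin genes (orange, named). Dashed lines mark 2-fold, and 15 genes beyond a log2 ratio of 4 in either direction are not drawn. The 8 genes lie between -0.21 and 0.16.

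The ratio of Cnp was the lowest of the 8, at -0.21 (25.6 and 21.99 TPM). As a description of how far genes of like abundance differ between the same 2 libraries, the SD of the log2 ratio over the 500 nearest genes was 0.17. The ratio of Mbp was -0.14 beside an SD of 0.13, and these 2 genes alone were beyond their SD. Coding genes in the highest GC bin had a median log2 ratio of -0.17 and those in the lowest bin 0.05, among genes above 3 TPM in at least 1 pool. Measured from the median of its own bin, the ratio of Cnp was -0.04 and that of Mbp -0.06. Cnp, at 55.8% GC, lies just above the lower edge of the highest bin (55.6%), and the next lower bin had a median of -0.08. The adjusted value of Cnp therefore depends on where the bins are cut. Egr2 had the highest ratio, 0.16 with an SD of 0.17 (22.8 and 25.5 TPM), and 0.18 from the median of its bin.

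Pmp22 was at -0.06 with an SD of 0.16 among its neighbours, and Mal at 0.04 with an SD of 0.13. The direction of Mal depended on the scaling, as it was -0.05 with TPM taken relative to Hprt and -0.01 on its highest row alone. For the genes below 3 TPM the ratios were -0.15 for Sox10, 0.11 for Prx and -0.01 for Mag, with SDs of 0.42, 0.38 and 0.20. From the median of their GC bin Sox10 was at 0.03 and Mag at 0.16, both on the other side of 0. No direction is therefore given for Mal, Sox10 and Mag.

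The pattern of these genes over the 2 pools was shared with many others. The nearest gene outside all lists, by Euclidean distance of log2(TPM + 1) over the 2 pools, was Hint1 for Pmp22 at 1051 and 1022 TPM, Hdac3 for Mbp, Rnf139 for Mal, Mgst3 for Cnp, Mettl6 for Egr2, Arid3b for Sox10, Cracr2a for Prx and Ccdc3 for Mag. Within a distance of 0.1 there were 7 genes for Pmp22, 95 for Mbp and 424 for Mag, so that likeness over 2 values sets no gene apart.

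The other genes of the sheath were then examined in a list of 29. Of these 20 were above 3 TPM in both pools and 0 were at least 2-fold apart. Among the 11648 genes above 3 TPM in at least 1 pool, 1.64% were at least 2-fold apart. A count of 0 therefore says little about this list or those that follow. The most abundant genes of the list were Cd9, a tetraspanin of many cell types, at 1500 and 1720 TPM, Mal2, a relative of Mal, at 696 and 672 TPM, and Gdap1, at 370.0 and 369 TPM. Mal2 exceeded Mal 11.0-fold and 10.3-fold. The lowest log2 ratio was that of Cryab, a small heat shock protein of Schwann cells, at -0.50 (36.3 and 25.4 TPM; SD 0.15). The highest was that of Pmp2, a lipid carrier of compact myelin, at 0.46 (1.97 and 3.10 TPM; SD 0.65). The median over the 22 genes above 3 TPM in at least 1 pool was -0.01, and 0.01 after the pools were rescaled by their median ratio.

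Lipids make up most of the sheath, and 10 of the 12 lipid genes in the files were above 3 TPM in both pools with 0 at least 2-fold apart and a median log2 ratio of -0.03. The desaturase genes Scd2, at 1074 and 1037 TPM, and Scd1, at 997 and 975 TPM, were highest, followed by the ceramide desaturase Degs1 at 551 and 609 TPM. Ugt8a, the enzyme that makes galactocerebroside, a typical lipid of myelin, had the highest log2 ratio, 0.27 (7.74 and 9.55 TPM; SD 0.25), and Elovl1, which lengthens fatty acids, the lowest, -0.19 (16.3 and 14.2 TPM; SD 0.25). The myelin-typical enzymes Fa2h, at 0.745 and 0.573 TPM, and Gal3st1, at 0.912 and 0.681 TPM, were the 2 below the threshold.

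Of 19 regulators of the Schwann cell program, 9 were above 3 TPM in both pools, 0 were at least 2-fold apart, and the median log2 ratio of the 9 was -0.04. Hdac2, a histone deacetylase found in most cells, led at 306 and 307 TPM. Nab1, a partner protein of Egr2, was at 54.4 and 52.5 TPM and Zeb2, a repressor needed for myelination, at 40.0 and 40.4 TPM. Wwtr1 (TAZ), a coactivator, had the highest ratio, 0.12 (25.7 and 27.99 TPM; SD 0.17), and Smarca4 (Brg1), a chromatin remodeller, the lowest, -0.24 (8.001 and 6.62 TPM; SD 0.52). Pou3f1 (Oct6), which acts just before Egr2 in promyelinating Schwann cells, was below the threshold at 1.03 and 1.41 TPM, as was the Egr2 partner gene Nab2 at 1.54 and 1.11 TPM.

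Of the 15 genes in the files for axonal signals and their receptors, 13 were above 3 TPM in both pools, 0 were at least 2-fold apart, and the median log2 ratio was -0.05. The integrin subunit gene Itgb1, at 478 and 480 TPM, and the receptor gene Adam22, at 222 and 231 TPM, were among the highest. Lgi4, the secreted Schwann cell ligand of Adam22, was at 3.48 and 3.71 TPM with the highest ratio, 0.07 (SD 0.54). Lama2, a laminin chain of the Schwann cell basal lamina, had the lowest, -0.27 (8.93 and 7.22 TPM; SD 0.51). Nrg1, the axonal neuregulin, was at 46.3 and 45.2 TPM, whereas its receptor genes Erbb2, at 0.897 and 0.587 TPM, and Erbb3 were the 2 below the threshold.

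Genes typical of immature and repair Schwann cells, many of them also neuronal, were detected in 14 of 18 cases, with 0 at least 2-fold apart and a median log2 ratio of -0.06. Gap43 was at 456 and 442 TPM, Id2 at 245 and 247 TPM and Egr1 at 149 and 142 TPM. Egr1 exceeded Egr2 6.55-fold and 5.56-fold. Shh had the highest ratio, 0.43 (17.9 and 24.5 TPM; SD 0.18), and Jun, which opposes Egr2 in Schwann cells, the lowest, -0.30 (117 and 94.5 TPM; SD 0.13). Sox2, another gene of the immature state, was at 37.2 and 40.7 TPM, 29.9-fold and 39.6-fold above Sox10.

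Across the 5 lists, 66 of 93 genes were above 3 TPM in both pools and 68 in at least 1. Of these 68, 41 were lower and 27 higher in the KLH pool, with a median log2 ratio of -0.03, and 0 were at least 2-fold apart. Among the 11648 genes above 3 TPM in at least 1 pool, 56.4% were lower and 1.64% at least 2-fold apart. The counts of the lists lie near these shares. The satellite glia markers had the same median, -0.03, with 8 of 8 lower. Each of these genes except Apoe differed by less than the SD among genes of like abundance. The lowest of them was Apoe, a lipid carrier, at -0.52 (132 and 91.5 TPM; SD 0.13). The pan-neuronal markers, led by Nefl at 5259 and 5048 TPM and Snap25 at 4057 and 4279 TPM, had -0.07 with 9 of 11 lower, but 0.02 when measured from the median of each gene's GC bin. The lowest of these was Rbfox3, which encodes the neuronal nuclear protein NeuN, at -0.44 (60.8 and 44.6 TPM; SD 0.13). Apoe and Rbfox3, at 59.5% and 56.7% GC, both fall in the highest GC bin, which itself had a median log2 ratio of -0.17. Both ratios were further from 0 than this median, and whether GC content contributed to them was not tested. Fibroblast markers reached 63.8 and 62.6 TPM for Dcn and 11.2 and 13.2 TPM for Lum, with 3 of 6 above 3 TPM in both pools and a sum of 88.1 and 88.4 TPM. Endothelial and macrophage markers were low, with sums of 10.4 and 7.34 TPM and of 6.24 and 5.65 TPM. The highest of them by mean of the pools were Cdh5 at 3.79 and 3.15 TPM and Pecam1 at 2.95 and 1.53 TPM for endothelium, and Cx3cr1 at 2.08 and 1.66 TPM and Mrc1 at 1.29 and 1.35 TPM for macrophages. The part of any of these cell types in the values of the 8 genes was not tested.

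**Figure D5:**
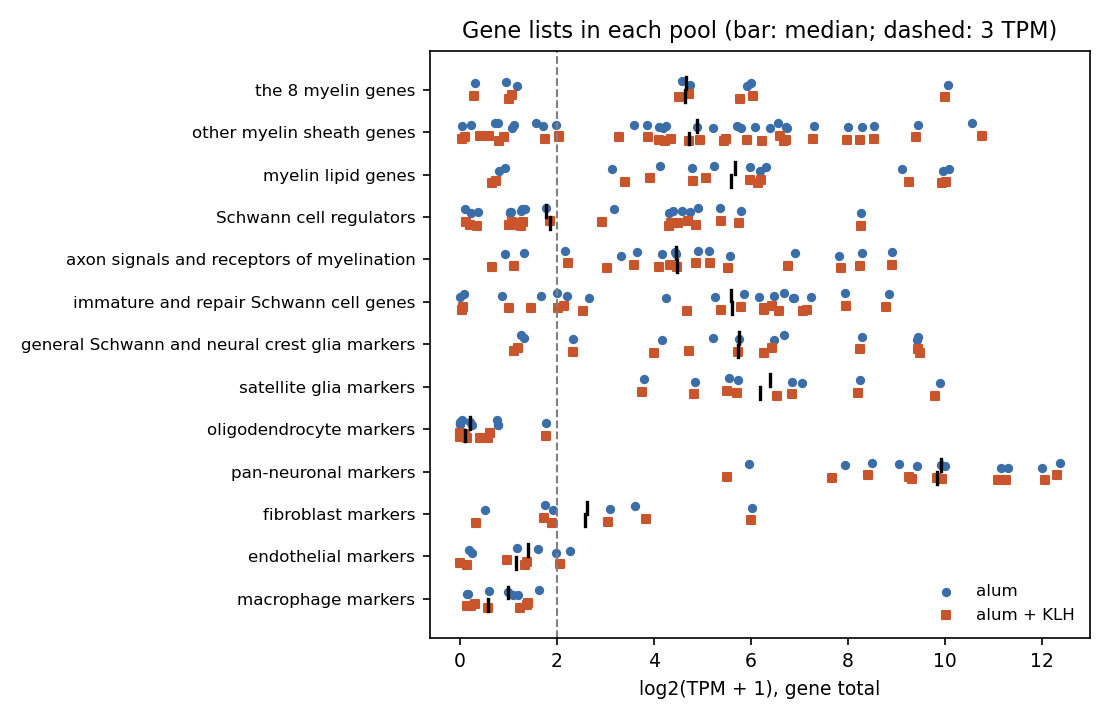
log2(TPM + 1) of each gene of the 8 myelin genes, 5 lists of myelination genes and 7 marker lists, in the alum pool (circles) and the KLH pool (squares), with the median of each list as a bar and 3 TPM as a dashed line. The oligodendrocyte and macrophage markers lie below the threshold, while all satellite glia and pan-neuronal markers lie above it.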

How the data were processed

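Per the labels and the study's methods, the authors sequenced strand-specific mRNA libraries from both ends, removed adapters with cutadapt and estimated TPM by kallisto against mouse transcripts (mm10). The tool versions are not given in the sources used here. The deposited TPM values, 1 per RefSeq row, were joined on row and symbol, and TPM was summed per gene.

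The members and lists were chosen with earlier results of these data known. Named were the 8 genes and, per list, the 3 most abundant (2 for markers), those with the highest and lowest log2 ratio above 3 TPM, genes listed at 0 in marker lists, and for each member the nearest gene; Apoe, Rbfox3, Sox2, Nrg1, Fa2h, Gal3st1, Pou3f1, Nab2, Erbb2, Erbb3 and Foxd3 were added after their values were seen. Some listed genes are counted but not reported here by name. Log2 ratios used a pseudocount of 1 TPM, and a call was 2-fold, with no test. GC content came from GENCODE M21 transcripts, matched for 20370 of 20655 coding genes (98.6%), through the RefSeq row with the highest TPM. Promoters with their starts and gene positions came from RefSeq (GRCm38.p6). The starts and exon numbers given for transcript rows are those of the matched GENCODE M21 transcripts. The calculations used Python 3.11.15, numpy 2.4.6, pandas 2.3.3 and matplotlib 3.10.9. The log2 ratio and the 2-fold call were tested on simulated data, in abundant rows with large known changes only. The sum over rows of a gene and the GC and promoter steps were not simulated. Alternatives were pseudocounts, thresholds, scalings, row choice, removal of small RNA rows and, added after the data had been seen, the median of 5 GC bins.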

Additional observations from a re-analysis of the deposited data

How the results depend on the processing

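The log2 ratios of the 8 genes ranged from -0.29 to 0.28 over 7 alternatives, and 55 of 56 values moved by less than the SD among genes of like abundance. The exception was Cnp, at -0.039 when measured from the median of its GC bin, an alternative added after the data had been seen. Cnp lies close to the lower edge of that bin, so this value depends on where the bins are cut. The sign changed for Mal, Sox10 and Mag in at least 1 alternative. At thresholds of 1 and 10 TPM, 6 and 5 of the 8 genes were above the threshold in both pools, and 0 were at least 2-fold apart under any alternative run. The median ratio of the pools over genes was 0.987, and 1470 rows of small RNA were left out in one alternative. No paired analysis was possible because each group holds 1 pooled library. The reads behind each TPM value are not in the files, so no counting error could be given for any gene, including Mag, Prx and Sox10 near or below 1 TPM.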
